A study of Rattus norvegicus with 36 samples.

Results

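The microRNAs (miRNAs) described here are those of heart and skeletal muscle, rno-miR-1-3p, rno-miR-133a-3p, rno-miR-133b-3p, rno-miR-206-3p and rno-miR-499-5p. They were chosen by name, with earlier results of these data known. Of these 5 names, 3 matched a row of the count table of 947 small RNAs exactly, namely miR-1-3p, miR-133a-3p and miR-499-5p. rno-miR-133b-3p and rno-miR-206-3p were not analysed here beyond their sequences. Small RNA was sequenced in 36 libraries, 18 from whole blood and 18 from the right superior lobe of the lung, of female WAG/RijCmcr rats that were 9 to 10 weeks old when irradiated. Within each tissue, 6 groups of 3 libraries were compared, untreated rats (0 Gy) at 1 and 4 weeks and rats at 1, 2, 3 and 4 weeks after a single thoracic X-ray dose of 15 Gy, delivered at 1.43 Gy/min. The heart was in the beam with the lung and a little of the liver, and the blood was drawn from the heart by puncture. By the study's methods each group had 9 rats, pooled by 3 before sequencing, while the deposited description gives 3 rats a group, so n counts libraries and p-values measure the spread between libraries.

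miRNAs are short RNAs that pair with messenger RNAs mostly through their seed, the bases near the 5′ end, and lower the output of those messengers. miR-1 and miR-133a are made together from shared transcripts in heart and skeletal muscle, miR-206 and miR-133b come from a similar pair that is active mainly in skeletal muscle, and miR-499-5p lies in an intron of the myosin gene Myh7b. Because they are so concentrated in striated muscle, these miRNAs are used in blood as markers of injury to heart or skeletal muscle. In rodents, heart muscle cells also line the larger pulmonary veins inside the lung.

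The mature sequences are shown because they set what a read could be counted as. The 7 bases of the seed, positions 2 to 8 from the 5′ end, are in capitals. They are RefSeq entries on the rat build GRCr8, where miR-1-3p lies at chr18:2160339-2160360 and miR-133a-3p at chr18:2157886-2157907, both on the minus strand, and miR-499-5p at chr3:164570616-164570636 on the plus strand.
rno-miR-1-3p: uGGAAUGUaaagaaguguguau
rno-miR-206-3p: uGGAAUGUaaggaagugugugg
rno-miR-133a-3p: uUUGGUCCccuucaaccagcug
rno-miR-133b-3p: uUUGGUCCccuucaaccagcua
rno-miR-499-5p: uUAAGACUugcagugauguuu

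miR-1-3p and miR-206-3p share their seed and differ at 3 of 22 bases (A11G, A21G and U22G, the miR-1-3p base first and positions counted from the 5′ end). Another rat miRNA, rno-miR-1b, has the same seed and differs from miR-1-3p at 1 base (G17A). miR-133a-3p and miR-133b-3p share theirs and differ at the last base alone (G22A). A read of the miR-133 family that had lost its last base could therefore not be assigned to miR-133a-3p or miR-133b-3p by sequence, and the miR-133a-3p counts are uncertain to that extent. The seed of miR-499-5p belonged to none of the other 4. On GRCr8, 2431 bases lie between the mature miR-1-3p and miR-133a-3p, and 3860 bases between miR-206-3p and miR-133b-3p on chromosome 9.

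All 3 measured muscle miRNAs were rare in both tissues. miR-133a-3p was the most abundant of them and the one found in every blood library, with 168 reads in 18 of 18 libraries. miR-1-3p gave 14 reads in 7 of 18 blood libraries, and miR-499-5p gave 0 reads among the 34242343 of the blood libraries, which allows a level of up to 0.0876 per 1000000. In lung, miR-133a-3p gave 956 reads in 17 of 18 libraries, miR-499-5p 77 reads in 16 and miR-1-3p 50 reads in 10. Ordered by level among the 458 mature rat miRNAs in the table, miR-133a-3p stood at place 126 in blood and 131 in lung, miR-1-3p at 227 and 289, and miR-499-5p at 265 in lung. Together they made up 0.00053% of all blood counts and 0.0048% of all lung counts. Reads were PCR products without molecular identifiers, so floors and intervals cover counting error only.

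Total counts ran from 1156407 to 2340177 in blood (median 1890243) and from 8132 to 3807051 in lung. Of the lung libraries, 0 Gy 1 week replicate 3 (11621 counts) and 15 Gy 3 weeks replicate 3 (8132 counts) had under 0.1 of the median depth, and 1 read there was worth 53.7 and 140 counts per 1000000 (CPM, here after TMM scaling, which sets libraries to a common level from the bulk of the miRNAs). In the study's own supplementary copy of the counts, the columns of 2 blood libraries, 0 Gy 1 week replicate 1 and 15 Gy 1 week replicate 2, stand in each other's place, while the other 34 stand as in the deposited table. The deposited labels were followed, and the tests of miR-133a-3p in blood at 1 and 2 weeks, over all weeks and against lung are also given with the exchange. Of the red cell miRNAs, miR-486-5p alone took 83.3 to 95.9% of the counts of a blood library. Of the marker lists of other cells, 4 smooth muscle miRNAs summed to a median of 86318 CPM in lung and 124 CPM in blood. The sums were 14257 and 32.5 CPM for 2 endothelial ones, and 1423 and 213 CPM for 4 leukocyte ones. All are scaled within each tissue with miR-486-5p in the totals, so they do not rank blood against lung.

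In blood, miR-133a-3p was low in untreated rats, and at 1 and 2 weeks after 15 Gy every library lay above the untreated ones of 1 week under the deposited labels. With the 2 libraries exchanged, the untreated ones of 1 week reached 8.60 CPM and both irradiated groups overlapped them. The 0 Gy libraries at 1 week held 2, 3 and 2 reads (0.913, 1.86 and 2.29 CPM), and those at 4 weeks held 9, 6 and 2 reads (5.07, 2.98 and 0.901 CPM). After 15 Gy, all 3 libraries at 1 week held 12 reads (6.20, 8.60 and 11.02 CPM). These lay above each of the 6 untreated libraries. At 2 weeks the libraries held 11, 10 and 18 reads (5.10, 3.87 and 5.81 CPM), which lay above the 0 Gy libraries at 1 week and overlapped those at 4 weeks. At 3 weeks they held 4, 22 and 4 reads (2.69, 7.46 and 2.11 CPM), and at 4 weeks 31, 2 and 6 reads (14.7, 0.473 and 6.37 CPM). Both late groups overlapped their controls, and the libraries of 4 weeks included the highest and the lowest level of all 18.

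**Figure D1:**
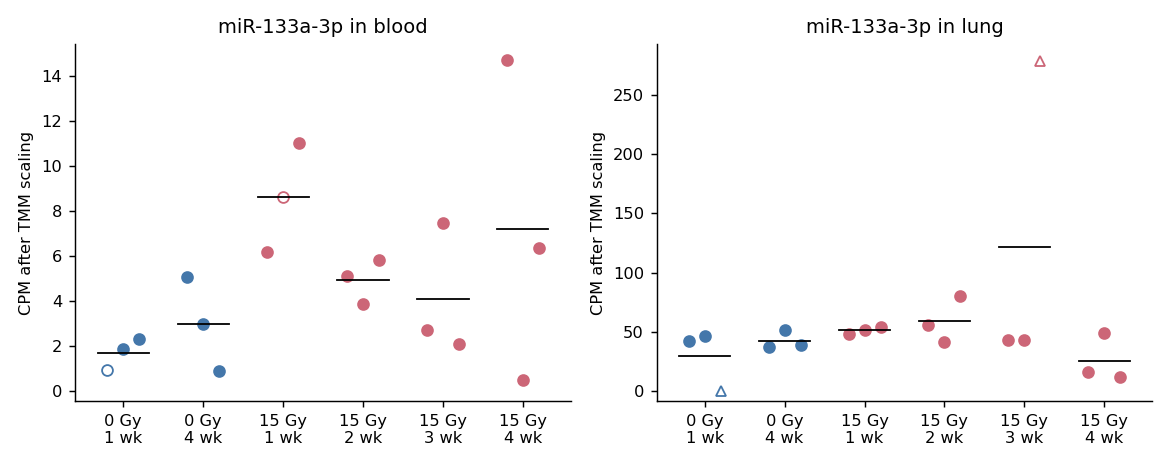
miR-133a-3p in each library, in CPM after TMM scaling, for blood (left) and lung (right), by dose and week; bars are means of 3 libraries. Open circles are the 2 blood libraries that stand exchanged in the study's supplementary copy, and open triangles are the 2 lung libraries of low depth. In blood the 3 libraries at 1 week after 15 Gy lay at 6.20 to 11.02 CPM, above all 6 libraries at 0 Gy, and in lung most libraries of both doses lay between 37.0 and 55.4 CPM.

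The mean level in blood was 1.69 ± 0.704 CPM (SD, n = 3) at 0 Gy 1 week and 8.61 ± 2.41 CPM at 15 Gy 1 week. The log2 fold change of miR-133a-3p at 1 week was 2.38 (SE 0.95, 95% interval 0.51 to 4.25), with adjusted p = 0.614 in the edgeR quasi-likelihood test, adjusted by Benjamini-Hochberg for the 289 miRNAs tested in blood. It was the only muscle miRNA of the 3 with enough reads for that test, and it was not called, against 0.346% of all miRNAs tested. Without adjustment its p was under the threshold of 0.05, as for 6.23% of all, and it stood at place 12 of the 289. In these bulk samples, a change in the number of cells of a type and a change in RNA per cell cannot be told apart. As labelled, the groups of 3 did not overlap, which also held for higher levels of 6.57% of the miRNAs tested, and the exact permutation test gives p = 0.1, the smallest that 3 against 3 libraries allow. With the 2 blood libraries exchanged, the log2 fold change was 0.42 (edgeR adjusted p = 0.994), and with both left out it was 1.78 (adjusted p = 0.985).

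At 2 weeks the mean was 4.93 ± 0.982 CPM, and the log2 fold change against 0 Gy at 1 week was 1.60 (SE 0.94, edgeR adjusted p = 0.484). It was not called, against 0.346% of all, and as labelled the groups did not overlap, as for higher levels of 9% of the miRNAs tested. This comparison uses the same control libraries as that of 1 week, and with the 2 libraries exchanged its log2 fold change was 0.19. With library totals in place of TMM it was 2.80 (edgeR adjusted p = 0.128). The value was 1.61 with miR-486-5p left out (adjusted p = 0.490) and 1.72 with library totals that leave it out (adjusted p = 0.386). The share of miR-486-5p in blood had a median of 91.4% at 0 Gy and 88.0% at 15 Gy, with overlapping ranges, and its log2 fold change was -1.40 at 2 weeks (SE 0.49, edgeR adjusted p = 0.218) and -0.41 over all weeks (SE 0.29, adjusted p = 0.492).

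At 3 and 4 weeks after 15 Gy the means in blood were 4.09 ± 2.94 and 7.18 ± 7.16 CPM, against 2.99 ± 2.09 CPM at 0 Gy 4 weeks. The log2 fold changes were 0.51 (SE 0.87) and 1.25 (SE 0.87), with adjusted p = 0.805 and 0.775 by edgeR. Both were set by single libraries, since without 15 Gy 3 weeks replicate 2 the first was -0.29, and without 15 Gy 4 weeks replicate 1 the second was -0.07. Between the untreated groups, 4 weeks against 1 week, the log2 fold change was 0.86 (SE 0.97, edgeR adjusted p = 1), and with the 2 libraries exchanged it was -0.54. The change at the late weeks minus that at the early weeks was -1.11 (SE 1.14, edgeR adjusted p = 1.00), and 0.57 with the exchange. The muscle miRNA tested was called in none of these 4 comparisons by edgeR, against 0% of all miRNAs at 3 and at 4 weeks, 0.346% between the untreated groups and 0.346% for late minus early weeks. At 3 and 4 weeks, 43 and 22 of 289 miRNAs had an unadjusted p under 0.05 in edgeR, and DESeq2 called 3 and 4.

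Over all weeks, miR-133a-3p in blood gave 24 reads in 6 libraries at 0 Gy, 1.92 per 1000000 counts (exact Poisson 95% interval 1.23 to 2.85), and 144 reads in 12 libraries at 15 Gy, 6.63 per 1000000 (5.59 to 7.80). With the 2 libraries exchanged these were 34 reads, 2.70 per 1000000 (1.87 to 3.77), and 134 reads, 6.19 per 1000000 (5.19 to 7.34). These intervals are of pooled reads and leave out the spread between libraries, so they do not test the dose. Of the libraries, those at 0 Gy held 0.901 to 5.07 CPM with a median of 2.07, and those at 15 Gy 0.473 to 14.7 CPM with a median of 6.0. The groups overlapped. The log2 fold change was 1.43 (SE 0.58, edgeR adjusted p = 0.252), not called, against 1.04% of all. Without adjustment its p was under 0.05, as for 16.3% of all. An exact permutation test over the 18 blood libraries gave a difference of 1.00 in log2(CPM + 1) (p = 0.0330, two-sided, adjusted p = 0.165 over 5 such tests). The same exact permutation test gave 1.28 with library totals (adjusted p = 0.0463), 0.417 with the 2 libraries exchanged (p = 0.395) and 0.804 with both left out (p = 0.106). The list of 5 red cell miRNAs, each with reads, summed to 856355 to 1898584 CPM at 0 Gy and 383475 to 1724558 CPM at 15 Gy, with 462187 to 593956 CPM at 2 weeks (TMM scaling lets such a sum pass the nominal total), and its part in these values was not tested.

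**Figure D2:**
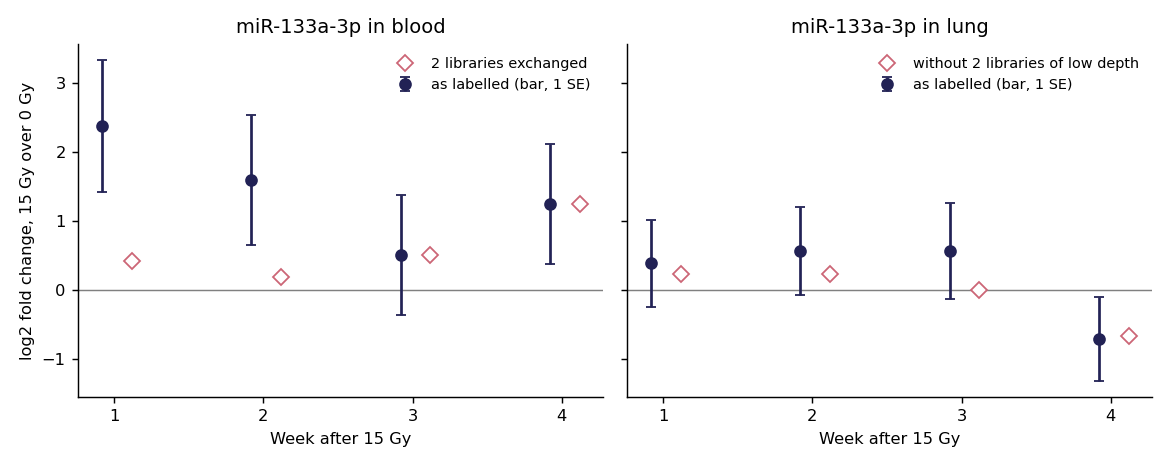
log2 fold change of miR-133a-3p at each week after 15 Gy, against 0 Gy at 1 week for weeks 1 and 2 and against 0 Gy at 4 weeks for weeks 3 and 4. Filled points are edgeR fits with the deposited labels, with bars of 1 SE, and open points are the fits with 2 blood libraries exchanged (left) or without the 2 lung libraries of low depth (right). In blood the values of 2.38 and 1.60 at weeks 1 and 2 became 0.42 and 0.19 with the exchange, and in lung the filled points ran from -0.70 to 0.57.

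In lung, miR-133a-3p stood between 37.0 and 55.4 CPM in most libraries of both doses. The 0 Gy libraries held 78, 54 and 0 reads at 1 week (42.4, 46.2 and 0 CPM) and 150, 114 and 30 reads at 4 weeks (37.0, 51.9 and 38.5 CPM). The library at 0 was the one with 11621 counts, where 0 reads allow up to 161 CPM. After 15 Gy, the libraries at 1 week held 68, 21 and 104 reads (47.8, 51.5 and 54.1 CPM), and those at 2 weeks 89, 33 and 17 reads (55.4, 41.4 and 80.0 CPM). At 3 weeks they held 47, 72 and 2 reads (43.4, 43.5 and 279 CPM), the last from the library of 8132 counts, and at 4 weeks 33, 41 and 3 reads (15.7, 48.8 and 11.9 CPM). The lowest levels outside the library at 0 were thus in 2 of the 3 libraries at 4 weeks.

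The log2 fold changes of miR-133a-3p in lung were 0.39 (SE 0.63) at 1 week, 0.57 (SE 0.64) at 2 weeks, 0.57 (SE 0.70) at 3 weeks and -0.70 (SE 0.61) at 4 weeks, and 0.21 (SE 0.39) for all 15 Gy against all 0 Gy libraries. Between the untreated groups it was 0.12 (SE 0.63), and the late minus the early change was -0.55 (SE 0.78). The smallest adjusted p of these 7 was 0.726 by edgeR, and miR-133a-3p was called in none of them, against 0% of the 499 lung miRNAs tested. From 26 to 52 of the 499 had an unadjusted p under 0.05 in these comparisons, and DESeq2 called 3 to 11, miR-133a-3p in none. At 1 week the irradiated libraries, from 47.8 CPM up, lay just above the 2 untreated ones with reads, at most 46.2 CPM. The place of the third is not known at its depth. With it counted at 0 the groups did not overlap, as for higher levels of 12.6% of the 499 miRNAs tested. Without the 2 libraries of low depth, the value at 3 weeks was -0.0041, that between the untreated groups -0.040 and that over all weeks -0.051.

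miR-1-3p, which shares its transcript with miR-133a-3p, was at or near 0 in blood. The 0 Gy libraries held 0, 0 and 1 reads at 1 week and 0, 1 and 0 at 4 weeks. After 15 Gy they held 0, 0 and 0 reads at 1 week, 0, 2 and 1 at 2 weeks, 0, 1 and 0 at 3 weeks, and 7, 0 and 1 at 4 weeks. The library with 7 reads, 15 Gy 4 weeks replicate 1, also held the most miR-133a-3p of any blood library, 31 reads. The difference by dose was 0.120 in log2(CPM + 1) (exact permutation p = 0.735), and it was -0.0355 without that library.

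In lung, miR-1-3p was found at 4, 2 and 0 reads at 0 Gy 1 week and 14, 7 and 0 at 0 Gy 4 weeks. After 15 Gy the reads were 8, 0 and 2 at 1 week, 7, 0 and 0 at 2 weeks, 0, 0 and 0 at 3 weeks, and 3, 1 and 2 at 4 weeks. All 3 libraries at 3 weeks were at 0, of 2623247 counts in all, but 1 of them had low depth and 2 untreated libraries were also at 0. The difference by dose was -0.242 in log2(CPM + 1) (exact permutation p = 0.667), and the groups overlapped at every week. Without the 2 libraries of low depth the difference was -0.397 (exact permutation p = 0.514).

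miR-499-5p was found in lung and not detected in blood. The lung libraries held 7, 5 and 0 reads at 0 Gy 1 week, and 21, 6 and 4 at 0 Gy 4 weeks. After 15 Gy they held 2, 2 and 5 reads at 1 week, 4, 1 and 1 at 2 weeks, 4, 2 and 0 at 3 weeks, and 9, 3 and 1 at 4 weeks. Both libraries at 0 were those of low depth. The mean level was 4.35 ± 1.40 CPM (SD, n = 3) at 0 Gy 4 weeks and 3.94 ± 0.355 CPM at 15 Gy 4 weeks, and the difference by dose over all lung libraries was -0.182 in log2(CPM + 1) (exact permutation p = 0.681). Without the 2 libraries of low depth the difference was -0.413 (exact permutation p = 0.136, adjusted p = 0.341). Pooled over lung libraries miR-499-5p stood at 4.30 per 1000000 counts (exact Poisson 95% interval 3.11 to 5.79) at 0 Gy and 2.72 (1.88 to 3.80) at 15 Gy, with intervals of counting error alone. The counts of miR-1-3p and miR-499-5p were too low for the filter of the edgeR fit.

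**Figure D3:**
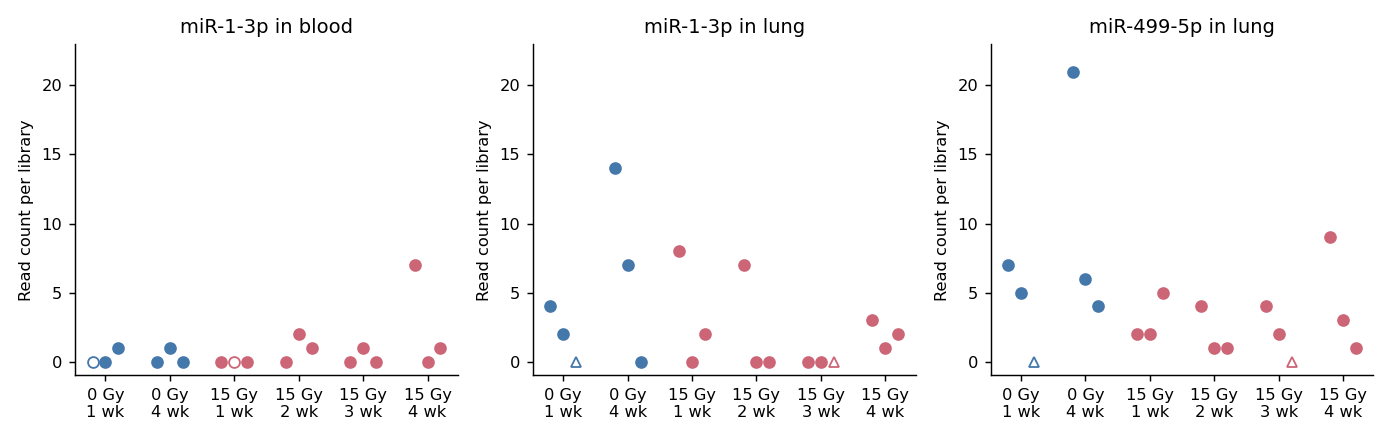
Read counts of miR-1-3p in blood and lung and of miR-499-5p in lung, 1 point per library, by dose and week; miR-499-5p was at 0 in all 18 blood libraries and is not drawn there. Open circles are the 2 blood libraries that stand exchanged in the study's supplementary copy and open triangles the lung libraries of low depth. No count passed 21, and the 7 reads of miR-1-3p in 15 Gy 4 weeks replicate 1 stood alone in blood.

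The 3 muscle miRNAs were present in unequal amounts. In lung, summed over libraries, there were 19.1 reads of miR-133a-3p for each read of miR-1-3p and 12.4 for each read of miR-499-5p, and in blood 12.0 for each read of miR-1-3p. miR-133a-3p exceeded miR-1-3p in all 18 blood libraries and in 17 of 18 lung libraries, and both were at 0 in the other one. Reads of different miRNAs are captured with unequal efficiency in library preparation, so these ratios are of reads and not of molecules. Across the 18 blood libraries, log2(CPM + 1) of miR-133a-3p and miR-1-3p had Pearson's r = 0.417 (permutation p = 0.0829, adjusted 0.332 over 4 pairs) and Spearman's rho = 0.342 (p = 0.165), and r was 0.0748 without the 2 libraries farthest in miR-133a-3p, both of 15 Gy 4 weeks. With the mean of each group subtracted, that pair in blood had r = 0.723 (permutation p = 0.00133) and rho = 0.516 (p = 0.0294), both unadjusted. With library totals that rho was 0.397 (p = 0.104). The 3 pairs in lung had rho between -0.198 and 0.144, with permutation p of 0.428 to 0.705. With group means subtracted their rho lay between 0.0031 and 0.156 (permutation p of 0.536 to 0.992).

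Whether miR-133a-3p was lower in blood than in lung depended on what its reads were counted against. Counted per 1000000 of all counts, miR-133a-3p stood at 4.91 in blood (exact Poisson 95% interval 4.19 to 5.71) and 42.5 in lung (39.8 to 45.3), with intervals of counting error alone. Counted per 1000000 of the counts other than miR-486-5p it stood at 48.2 in blood and 43.4 in lung. In untreated libraries alone, that second level was 24.5 ± 17.5 in blood and 37.4 ± 23.4 in lung (SD, n = 6), ranges of 8.45 to 56.3 and 0 to 58.0 that overlapped, and in blood it was 37.3 ± 28.0 with the 2 libraries exchanged. miR-1-3p stood at 0.409 and 2.22 per 1000000 of all counts in blood and lung, and at 4.02 and 2.27 per 1000000 of the others. Of its 14 blood reads, 7 came from 15 Gy 4 weeks replicate 1. In untreated libraries alone its second level was 1.89 in blood, from 2 reads, and 2.74 in lung. Set against a floor of 3 counts over the blood libraries, the lung level of miR-499-5p was 39.1-fold higher per 1000000 of all counts. It was 4.06-fold higher per 1000000 of the others. For untreated libraries alone these ratios were 17.9-fold and 1.54-fold, and for irradiated ones 19.7-fold and 2.25-fold. The ratios leave out the counting error of the lung reads, so they are not firm lower bounds.

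**Figure D4:**
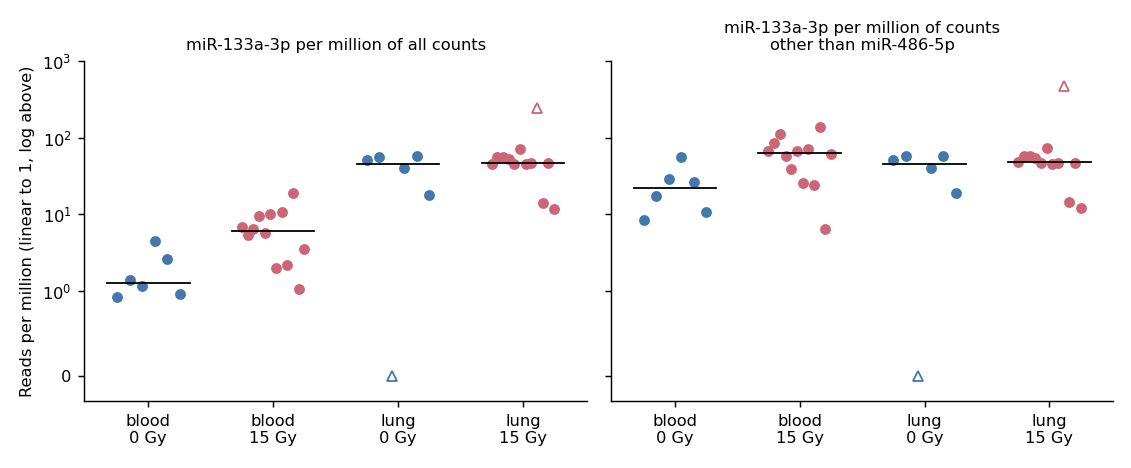
miR-133a-3p per 1000000 of all counts (left) and per 1000000 of the counts other than miR-486-5p (right), 1 point per library, by tissue and dose. The axis is linear up to 1 and logarithmic above, bars are medians, and open triangles are the lung libraries of low depth. Pooled over libraries, blood and lung stood at 4.91 and 42.5 on the left and at 48.2 and 43.4 on the right.

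In the edgeR fit of both tissues the log2 fold change of miR-133a-3p, lung over blood at 0 Gy, was 1.83 (SE 0.55, adjusted p = 0.00431), a call shared with 75% of the 576 miRNAs tested. Of all tested, 49.7% were called higher in lung and 25.3% lower. The median log2 fold change over all 576 was 1.85, so the miR-133a-3p value was near that of the typical miRNA. For miR-133a-3p it was 4.54 with library totals (adjusted p = 3.22e-07), 1.15 with RLE size factors (adjusted p = 0.0756), 1.19 with DESeq2 (adjusted p = 0.0810) and 0.97 with library totals that leave out miR-486-5p (adjusted p = 0.134). TMM scales to 1 reference library, here 0 Gy 4 weeks replicate 3 of lung. When single libraries were left out, that reference stayed in 3 of 36 fits (1.75 to 1.91, called in all 3) and became the lung library of 8132 counts in the other 33 (0.014 to 0.57, called in 0). With TMM and the 2 blood libraries exchanged it was 1.13 (adjusted p = 0.0885), and with both left out 0.015. The call therefore depended on the scaling and on the labels of those libraries. The change after 15 Gy in lung minus that in blood was -1.42 (SE 0.66, edgeR adjusted p = 0.382), not called, against 0.174% of all miRNAs. Without adjustment its p was under 0.05, as for 12.3% of all, and with the exchange the value was -0.58 (adjusted p = 0.941).

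RefSeq places a gene, Mir3582, on the opposite strand of the miR-133a gene at chr18:2157853-2157970. Its mature product is shown because it is antisense to miR-133a-3p.
rno-miR-133c: cAGCUGGUugaaggggaccaa

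These 21 bases are the exact reverse complement of bases 2 to 22 of miR-133a-3p. The count table holds a row named rno-miR-3582, and the miRBase v19 sequence behind that name was not given in the sources used here. Its counts were at or below those of miR-133a-3p in all 36 libraries, 278 reads in 17 of 18 lung libraries and 20 reads in 10 of 18 blood libraries. For each read of miR-3582 there were 3.44 reads of miR-133a-3p in lung (2.00 to 5.88 by library, median 3.73) and 8.4 in blood. Whether reads were counted by strand is not stated, so reads from the 2 strands cannot be told apart with certainty.

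**Figure D5:**
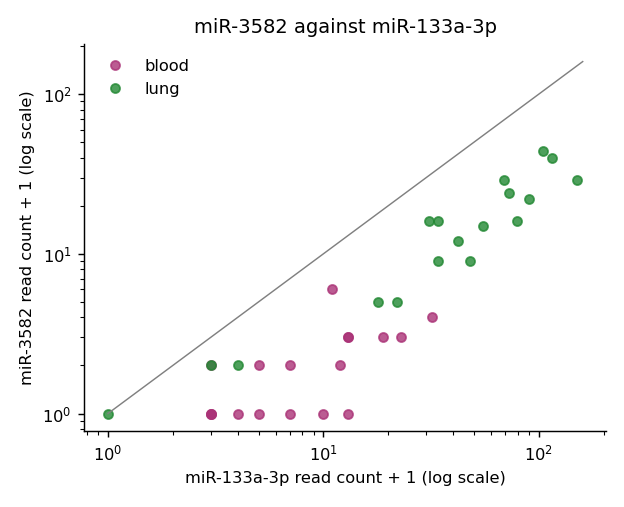
Read counts of miR-3582 against those of miR-133a-3p, each with 1 added, on log axes, for 18 blood and 18 lung libraries; the line marks equal counts. No library lay above the line, and the highest miR-3582 count was 43, in lung.

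By Spearman's rho of log2(CPM + 1) over the 18 lung libraries, among 416 miRNAs with a mean of at least 10 CPM, the pattern of miR-133a-3p was most like those of miR-3102 (0.781), miR-3582 (0.754), let-7b-3p (0.734), miR-664-3p (0.666) and miR-205 (0.595). The same libraries and depths enter both sides, and without the 2 of low depth the values were 0.424 to 0.715. For miR-1-3p the nearest known rat miRNAs were miR-542-5p (0.699) and miR-152-3p (0.652), and for miR-499-5p miR-532-5p (0.587).

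Of 14 other miRNAs of heart or skeletal muscle, 7 had a row. miR-208a-5p, from the other arm of the miRNA in the heart myosin gene Myh6, was at 0 in all 36 libraries. miR-490-3p and miR-490-5p, in an intron of the muscarinic receptor gene Chrm2, were found in 13 and 11 of the 18 lung libraries, with 62 and 24 reads, and in 0 of the blood libraries. The other 4 are abundant in muscle but widely expressed, and the fits tested 3 of them in blood and all 4 in lung. miR-22-3p had a median of 352 CPM in blood and 9638 CPM in lung, miR-378a-3p, from an intron of Ppargc1b, of 256 and 737 CPM, and miR-378a-5p of 2.20 and 5.49 CPM. These medians are scaled within each tissue. In the TMM-scaled fit of both tissues the log2 fold change, lung over blood at 0 Gy, was 2.25 for miR-22-3p (SE 0.23, edgeR adjusted p = 2.32e-09). It was -0.04 (SE 0.31, edgeR adjusted p = 0.948) for miR-378a-3p and -1.17 (SE 0.49, adjusted p = 0.0325) for miR-378a-5p. That fit called 75% of the 576 miRNAs tested and had a median log2 fold change of 1.85 over them. Its scaling rests on 1 reference library, on which the miR-133a-3p value depended. By edgeR, 0 of the 3 and 0 of the 4 were called in any of the 7 comparisons within blood or lung. Of all miRNAs tested, 0 to 1.04% were called in blood and 0% in lung. The largest change of these 4 in lung was that of miR-486-5p at 3 weeks, 2.26 (SE 1.28, edgeR adjusted p = 0.606), where 1 library had low depth. The largest of their changes at 4 weeks in lung was that of miR-378a-3p, with 756, 1774 and 1841 CPM at 0 Gy and 986, 708 and 325 CPM at 15 Gy. These groups overlapped, and the log2 fold change was -1.11 (SE 0.48, edgeR adjusted p = 0.453).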

How the data were processed

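Small RNA libraries of rat blood and lung were made by the authors with the Illumina TruSeq kit. Per the labels and the study's methods, the authors trimmed reads with Trim Galore 0.2.5, mapped them with Bowtie 1.1.1 to miRBase v19, and named build rn4. The deposited table, as the authors made it, gives whole read counts per miRNA in 36 libraries with no normalization, and these were used unchanged. Strand handling is not given in the sources used here. miR-486-5p stayed in the library totals unless stated.

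The count test was edgeR 4.0.16 under R 4.3.3. Each tissue was fitted over its 18 libraries, and both over 36, after filterByExpr (289, 499 and 576 miRNAs left, 1 muscle miRNA in each), with TMM scaling, the quasi-likelihood test and Benjamini-Hochberg adjustment over all miRNAs tested, at a threshold of 0.05. The SE is the log2 fold change over the root of F, and intervals are 1.96 SE to each side. Weeks 1 and 2 were set against 0 Gy at 1 week, and weeks 3 and 4 against 0 Gy at 4 weeks. Single miRNAs were tested by exact two-sided permutation on log2(CPM + 1), and correlations with 100000 permutations, in scipy 1.17.1. The edgeR test was checked on simulated data with known changes. Groups came from the labels. No 2 libraries of a group held identical counts.

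Always named were the 5 muscle miRNAs, 14 other miRNAs of muscle and, per miRNA, the 5 with the most similar lung pattern, of which new loci and other species' names are left out of the text. The members and lists were chosen with earlier results of these data known. Alternatives were RLE, library totals, no filter, DESeq2 1.42.0, unadjusted p, pooled controls, only the groups compared, pseudocounts of 0.5 and 5, miR-486-5p left out, lung libraries of low depth left out, 2 blood libraries exchanged, a replicate block and each library left out. Added after seeing the data were both blood libraries left out, DESeq2 with the exchange, and library totals without miR-486-5p. No genome of rn4 was used here, and sequences are from RefSeq on GRCr8.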

Additional observations from a re-analysis of the deposited data

How the results depend on the processing

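In the count fits, the number of muscle miRNAs called by dose was 0 under every alternative with adjusted p, including DESeq2, which gave miR-133a-3p no adjusted p in blood over all weeks, and with unadjusted p it was 1 in blood at 1 week, in blood over all weeks and for lung minus blood. For lung over blood at 0 Gy the count of 1 became 0 with RLE, DESeq2, library totals without miR-486-5p, the exchange of 2 blood libraries, their removal or DESeq2 with the exchange, 2 without a filter, and 0 to 1 when single libraries were left out. The miR-133a-3p log2 fold change between untreated groups turned to -0.54 in blood with the exchange (-0.56 by DESeq2), and in lung to -0.33 with library totals, -0.32 with those less miR-486-5p and -0.040 without libraries of low depth. In blood the late minus early change turned to 0.57 with the exchange (0.53 by DESeq2). Without the lung libraries of low depth, the miR-133a-3p change in lung was -0.0041 at 3 weeks and -0.051 over all weeks. Its difference by dose in lung was then -0.0919 (exact permutation p = 0.880), against 1.05 (p = 0.224) with all lung libraries. Without those of low depth, rho of miR-1-3p with miR-499-5p in lung was -0.0649. With library totals rho of miR-133a-3p with miR-499-5p was 0.112, and the permutation difference of miR-133a-3p in blood was 1.28 (adjusted p = 0.0463).

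With single libraries left out, that difference ran from 0.862 to 1.20 (adjusted p from 0.0214, without 15 Gy 4 weeks replicate 2, to 0.389), and that of miR-1-3p in blood from -0.0355 to 0.284. The miR-133a-3p log2 fold change ran from -0.290 to 1.11 in blood at 3 weeks and from -0.0677 to 1.84 at 4 weeks. In lung it ran from -0.0039 to 1.12 at 3 weeks, -0.0414 to 0.323 over all weeks and -0.275 to 0.198 between untreated groups. The cause was not tested where no value above shows it.

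Replicate numbers were not taken to pair the samples. Deviations of same-numbered libraries had a median correlation of 0.029 in blood (-0.280 to 0.522) and 0.074 in lung (-0.227 to 0.397). For libraries of different numbers it was -0.017 (-0.385 to 0.339) and -0.043 (-0.498 to 0.290), with overlapping ranges. For blood with lung of the same number it was -0.029 (-0.330 to 0.240). These values do not settle whether the numbers pair samples. With a replicate block the miR-133a-3p log2 fold change in blood was 2.41 at 1 week and 1.45 over all weeks, and no call of a muscle miRNA changed. Over all miRNAs, calls in the 7 blood comparisons numbered 0 to 3, and 0 to 47 over the alternatives. In lung they numbered 0 in each and 0 to 52 over the alternatives. For lung over blood 432 became 346 to 487, and for the change in lung minus that in blood 1 became 0 to 71. The upper ends of 47, 52 and 71 came from unadjusted p.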
